A study of Mus musculus with 8 samples.

Results

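The urea cycle enzymes were read on 8 Affymetrix mouse arrays, through every probe set annotated to a single gene of a fixed list of 7, which gave 10 of the 34945 such probe sets. The genes are Nags, Cps1, Slc25a15, Otc, Ass1, Asl and Arg1. Of the 18193 genes with such a probe set 10916 were bright enough to be tested, and 6 of the 7 members were among them. The seventh, Otc, lay under the level filter. All cells were hepatoblasts positive for Dlk, the common precursors of hepatocytes and bile duct cells, isolated from livers of Ink4a-Arf-null mouse embryos at day 14.5. After 12 to 18 h of pre-incubation they received EGFP (4 arrays labelled control) or Bmi1 (4 arrays labelled Bmi1). They were grown with hepatocyte growth factor and epidermal growth factor, and were purified by flow cytometry at culture day 28, when RNA equivalent to 10000 cells was amplified in 2 cycles. The deletion of Ink4a-Arf and the culture are therefore shared by both groups, and the labels do not name the vector or promoter that drives Bmi1.

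The urea cycle disposes of ammonia in the liver. Nags makes N-acetylglutamate, which Cps1 needs to fix ammonia as carbamoyl phosphate in mitochondria, and Otc joins that product to ornithine. Slc25a15 carries ornithine into the mitochondrion and citrulline out, and Ass1, Asl and Arg1 complete the cycle in the cytosol and release urea. In the mature liver these enzymes are strongest in hepatocytes near the portal vein, and their rise is a mark of hepatocyte maturation.

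The cells carried their type's defining signals. Alb averaged 4481 ± 1081 on control arrays and 4272 ± 1309 on Bmi1 arrays, and Afp, the fetal counterpart of albumin, 5140 ± 1083 and 4932 ± 1218 (SD, n = 4 each). Dlk1, the surface protein the cells were sorted by, averaged 1324 ± 685 and 2242 ± 758 and was higher in 4 of 4 pairs (log2 difference 0.80, limma adjusted p = 0.676 unblocked and 0.0507 blocked, n = 4 each). Apoa1, an apolipoprotein, averaged 5552 ± 810 and 4147 ± 914 and was lower in 4 of 4 (-0.51, limma adjusted p = 0.322 and 0.124 in the same order). Signal for Bmi1 itself went against the labels, at 518 ± 218 in the control arrays and 279 ± 60.01 in the arrays labelled Bmi1 at its brighter probe set (adjusted p from limma 0.461 as groups, 0.0248 with the replicate number as a block). Its second probe set read 216 ± 136 and 100.3 ± 25.4. Whether either probe set lies in the introduced sequence was not tested, so these values do not settle the labels. All directions below are by label. Replicates 1 and 2 are called run 1 and replicates 3 and 4 run 2, since the BioC 3′ hybridisation control separates them (198 to 274 in run 1 and 97.0 to 119 in run 2). The labels give replicate numbers only and name no run, so this split is inferred. Each run holds both groups equally. Control replicate 1 stood apart in the 3′ over 5′ signal ratio of Gapdh, at 3.10 against 1.65 to 1.97 on the other 7 arrays. Whether the RNA of this array or its amplification differed was not tested. Without that array Cps1 differed by -1.63 and Arg1 by -2.29, the median of the 6 tested members was -0.69, and 1 gene of all tested passed without a block.

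All 6 tested members had a lower mean in the arrays labelled Bmi1, where 54.3% of all tested genes did. Here and below, a lower or higher mean in such counts is that of log2 values after the arrays were centred. Ass1 enters with its own dim probe set, not with a brighter one shared with a pseudogene. The median log2 difference of the 6 was -0.64 against -0.03 over all tested genes. In limma without a block 0 of the 6 passed at an adjusted p of 0.05, where 0.165% of all tested genes passed. In that fit 3 of the 6 had an unadjusted p under 0.05, as did 853 of the 10916 tested genes. With the replicate number as a block 2 of the 6 passed, Slc25a15 and Arg1, both lower, where 3.33% of all tested genes passed and 1.96% passed as lower. Of the 6 members 4 were lower in every one of the 4 numbered pairs, as were 15.9% of all tested genes. Only Cps1 among the 6 had groups that did not overlap, with the arrays labelled Bmi1 lower, as 1.8% of all tested genes did. Bulk signal cannot tell fewer cells with a transcript from less transcript in each cell.

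**Figure D1:**
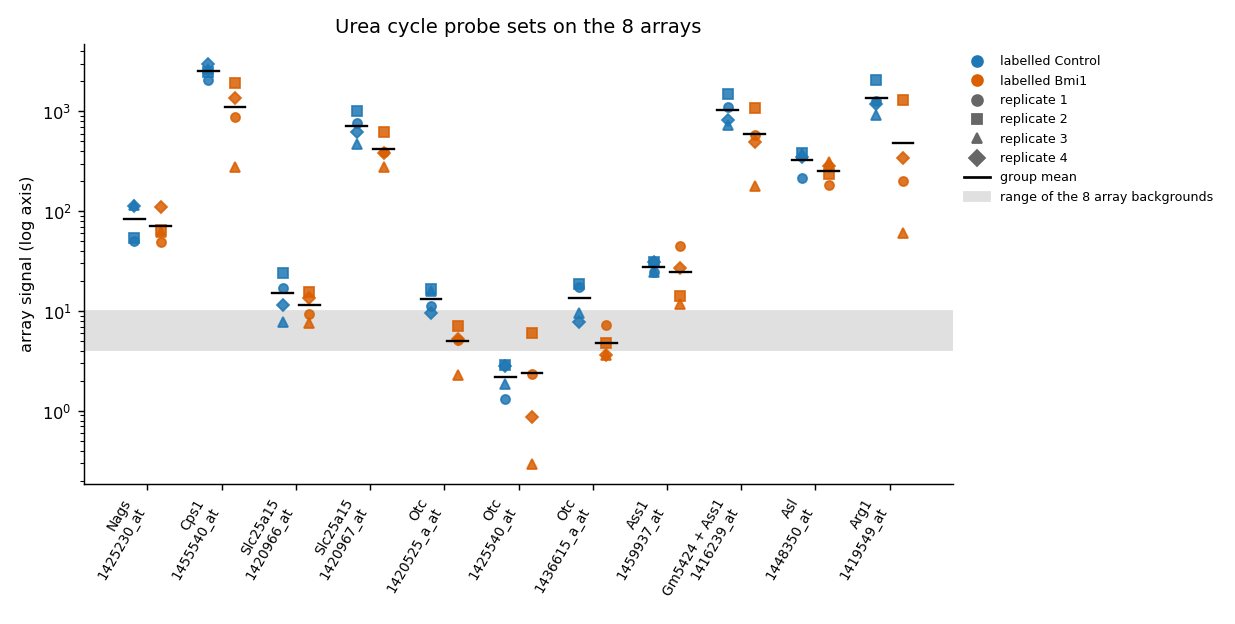
Array signal on a log axis for the 10 single-gene probe sets of the urea cycle members and the probe set shared by Ass1 and Gm5424, with 1 point per array, the marker giving the replicate, a bar for each group mean and a grey band for the range of the 8 array backgrounds. Bmi1 replicate 3 is the lowest array for Cps1 (279) and Arg1 (59.99). The Otc points labelled Bmi1 lie in or under the band, as do some of the control points of each Otc probe set.

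Nags, which makes the activator of Cps1, overlapped between the groups. It read 50.8 and 53.8 in control replicates 1 and 2 and 117 and 112 in replicates 3 and 4. The arrays labelled Bmi1 read 49.1, 64.3, 62.5 and 110 in the same order. Both controls of run 2 were high and both of run 1 low, and Bmi1 replicate 3 stayed at the level of run 1. The log2 difference was -0.25 (SE 0.32, 95% interval -0.96 to 0.47, limma adjusted p = 0.964). It was 0.01 within run 1 and -0.50 within run 2, and the blocked model gave an adjusted p of 0.584.

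Cps1, the rate-limiting entry enzyme of the cycle, read 2071, 2468, 2643 and 2988 in control replicates 1 to 4. It read 884, 1914, 279 and 1350 in the arrays labelled Bmi1. The controls lay close together, the arrays labelled Bmi1 spread 6.86-fold from lowest to highest, and every one of them was below every control. The mean log2 difference was -1.56 (SE 0.50, 95% interval -2.68 to -0.45), a 2.96-fold lower level. It was lower in 4 of 4 pairs but passed in neither model (limma adjusted p = 0.353 unblocked and 0.0778 blocked). The pair differences were -1.32, -0.45, -3.31 and -1.17, so that their SD of 1.23 was nearly as large as their mean. Without Bmi1 replicate 3 the mean difference was -0.99. Only with the block and with arrays centred on the median of all probe sets did Cps1 pass (adjusted p = 0.0276). Of the 10916 tested genes 110 had a more negative difference.

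Slc25a15, the ornithine and citrulline carrier, had the most even difference of the members. Its brighter probe set read 772, 1014, 468 and 618 in the control arrays. It read 394, 623, 276 and 381 in the arrays labelled Bmi1. Within each pair the array labelled Bmi1 was lower, by -1.06, -0.78, -0.84 and -0.72 on the log2 scale, although the groups overlap, with both arrays of replicate 2 high and both of replicate 3 low. The mean log2 difference was -0.85 (1.80-fold lower). Its SE was 0.31 without a block (limma adjusted p = 0.479) and 0.11 in the blocked model (adjusted p = 0.0112, 95% interval -1.09 to -0.60). With the block it passed with each pair left out in turn, at an adjusted p of 0.0328, 0.0452, 0.0434 and 0.0292. With the run as a block the adjusted p was 0.0536. The second probe set was dim, at 17.1, 24.3, 7.81 and 11.6 in the control arrays and 9.24, 15.4, 7.59 and 13.6 in those labelled Bmi1. Its log2 difference of -0.34 did not pass (limma adjusted p = 0.998 over 34945 probe sets, and 0.718 with the block), and it was lower in 3 of 4 pairs.

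The sequence before the outer transcript start of Slc25a15 is shown because this member alone passed with the block in every such setting. RefSeq places it on the minus strand at chr8:22398622-22398871 (GRCm38.p6). Capitals mark the matches to GGGCGG, the GC box bound by Sp1-like factors, on either strand.
Slc25a15: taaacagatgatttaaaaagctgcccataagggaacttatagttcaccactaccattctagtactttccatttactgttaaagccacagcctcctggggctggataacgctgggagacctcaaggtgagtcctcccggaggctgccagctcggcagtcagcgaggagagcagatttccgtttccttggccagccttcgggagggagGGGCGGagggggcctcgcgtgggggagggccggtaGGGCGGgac
The GC box occurs at 44 and 9 bases before the start, and 32.7% of 32841 RefSeq promoter windows of 250 bases hold at least 1. The window has 11 CG dinucleotides, where the median window has 6. A second RefSeq start further in has 43, with 5 GC boxes of which 2 overlap. Matches are letters in a window only.

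Otc, the mitochondrial enzyme that makes citrulline, was at or near background. An array's background was the level under which 95% of its 27 Bacillus control probe sets lay, and it ran from 4.09 to 9.97. Its first probe set read 11.1, 16.4, 15.9 and 9.56 in the control arrays, all above background. The same probe set read 5.19, 7.13, 2.29 and 5.25 in the arrays labelled Bmi1, of which 3 of 4 were at background. All 4 lay below every control, but values at background are upper limits, so no size is given for this difference. In limma over 18193 genes without the level filter it had an adjusted p of 0.337, and 0.205 with the block. The second probe set read 17.4, 18.7, 9.65 and 7.85 against 7.23, 4.81, 3.65 and 3.59. All 4 arrays labelled Bmi1 were at background there. With these set at their backgrounds the signal was at least 1.75-fold lower on average. This does not hold array by array, as control replicate 4 lay below the background of Bmi1 replicate 1 (9.97). The difference at this probe set did not pass (limma adjusted p = 0.691 over 34945 probe sets, and 0.215 with the block). The third probe set was at background on all 8 arrays. Otc was thus above background on every control array at 2 of 3 probe sets, on 1 array labelled Bmi1 at the first of these, and was called in neither model.

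The bases before the Otc start are shown as a contrast in base makeup, at chrX:10252055-10252229 on the plus strand (GRCm38.p6, RefSeq), up to the first annotated base of the gene.
Otc: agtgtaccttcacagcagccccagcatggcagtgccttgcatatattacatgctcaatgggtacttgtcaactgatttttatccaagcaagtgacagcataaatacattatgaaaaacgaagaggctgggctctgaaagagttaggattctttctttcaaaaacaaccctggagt
No capitals appear because none of 7 short motifs searched on both strands matched here or in the 250 bases before the listed start. Beside the GC box these were the CCAAT box (CCAAT, in 33.9% of the windows) and the TATA box (TATAAA, 12.4%). For signals that act on liver metabolism they were the core of the cAMP response element (TGACG, 17.8%), the nuclear receptor core (AGGTCA, 14%), the glucocorticoid receptor core (TGTTCT, 16.1%) and the HNF1 core (GTTAAT, 6.43%). Otc had 1 CG dinucleotide in 250 bases, Nags 11 and Ass1 23. Nags held 2 GC boxes and 1 nuclear receptor core, and Ass1 held 1 GC box. No sequence was read here for Cps1, Asl or Arg1.

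Ass1, which joins citrulline to aspartate, has 1 probe set of its own, and that one was dim. It read 24.7, 30.7, 24.8 and 31.0 in the control arrays and 44.5, 14.3, 11.8 and 27.0 in the arrays labelled Bmi1. Bmi1 replicate 1 was the highest of all 8 arrays and Bmi1 replicates 2 and 3 the lowest. The log2 difference was -0.38 (SE 0.38, 95% interval -1.22 to 0.46, limma adjusted p = 0.943, and 0.593 with the block).

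A further probe set is annotated both to Ass1 and to the pseudogene Gm5424, so it belongs to no single gene and lies outside the 10. It read 1110, 1481, 735 and 814 in the control arrays and 578, 1094, 181 and 499 in those labelled Bmi1. It was lower in 4 of 4 pairs, by a log2 difference of -1.09 (SE 0.49). It did not pass among 19205 probe sets (limma adjusted p = 0.799 unblocked and 0.0559 blocked), a comparison chosen after seeing the data. The 2 probe sets disagreed in pair 1, where the dim one was higher by 0.66 and the shared one lower by -1.03.

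Asl, which splits argininosuccinate, read 213, 379, 374 and 352 in the control arrays. It read 184, 236, 310 and 283 in the arrays labelled Bmi1. It was lower in 4 of 4 pairs, yet control replicate 1 lay below 3 of the arrays labelled Bmi1. The log2 difference was -0.44 (SE 0.21, 95% interval -0.92 to 0.04, limma adjusted p = 0.728, and 0.116 with the block). Bmi1 replicate 3, the lowest of its group for Cps1, Arg1 and Slc25a15, was the highest of its group for Asl.

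Arg1, which releases urea and returns ornithine, had the largest mean difference of the 6 tested members. It read 1283, 2051, 929 and 1194 in the control arrays. It read 201, 1313, 59.99 and 345 in the arrays labelled Bmi1. Bmi1 replicate 2 lay among the controls, and Bmi1 replicate 3 was 21.9-fold below it. The mean log2 difference was -2.31 (4.96-fold lower), with 25 of 10916 genes more negative. Single arrays moved it, to -1.58 without Bmi1 replicate 3 and -3.06 without Bmi1 replicate 2, and array weights gave -1.62. Its SE was 0.76 without a block (limma adjusted p = 0.384) and 0.44 in the blocked model (adjusted p = 0.0338, 95% interval -3.32 to -1.30). It was lower in 4 of 4 pairs, by -2.75, -0.73, -3.96 and -1.81. With the block, the call was kept without pair 2 (adjusted p = 0.0287) and lost without pair 1 (0.108), pair 3 (0.0642) or pair 4 (0.0657). With the run as a block it did not pass (adjusted p = 0.121).

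**Figure D2:**
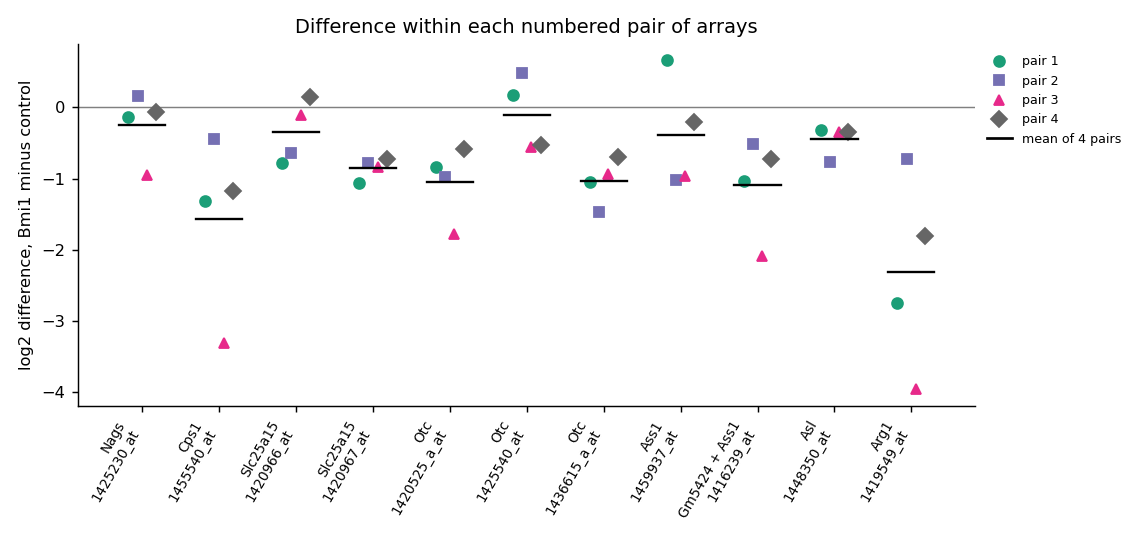
Log2 difference, Bmi1 minus control, within each of the 4 numbered pairs, with 1 marker per pair and a bar for their mean. The brighter Slc25a15 probe set stays between -1.06 and -0.72, while Cps1 runs from -3.31 to -0.45 and Arg1 from -3.96 to -0.73. For Otc most arrays labelled Bmi1 were at background.

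The members did not vary as one block. Over the 8 arrays Cps1 and Arg1 correlated at 0.95, Arg1 and Slc25a15 at 0.92, and Cps1 and Slc25a15 at 0.79 (Pearson's r of log2 values). After the group means were taken out these values were 0.90, 0.84 and 0.58. Asl then gave -0.21, -0.19 and -0.32 with Cps1, Arg1 and Slc25a15, and Nags and Slc25a15 gave -0.54. The arrays share groups, pairs and scaling, so these values are descriptions. Cps1 differed by -0.89 within run 1 and by -2.24 within run 2, and Arg1 by -1.74 and -2.88. The interaction of run and label did not pass for any of the 6, the lowest unadjusted p being 0.169 for Cps1 (limma, 0 of all tested genes called and 301 at an unadjusted p under 0.05).

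**Figure D3:**
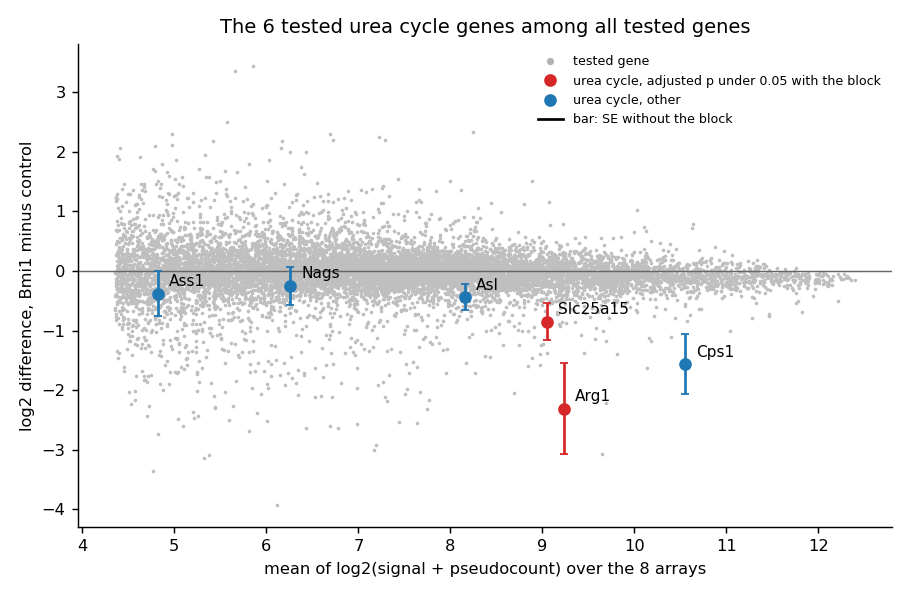
Log2 difference against mean log2 level for the 10916 tested genes (grey), with the 6 tested urea cycle genes and their SE without the block. Arg1 (-2.31) and Cps1 (-1.56) lie far below most genes of like level, and Ass1 (-0.38) and Nags (-0.25) within the bulk. Ass1 is drawn at its own dim probe set, and the brighter one shared with Gm5424 (-1.09) is not drawn.

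The tested genes most like the members, by Pearson's r with the mean standardized value of the 6 over 8 arrays, were Maob (0.991), Ftcd (0.988), Slc39a5 (0.987), Hprt (0.983) and Gstk1 (0.974). These are the 5 highest values among 10910 other genes, over only 8 arrays. The members' mean ran from 0.16 to 0.74 on control arrays and from -1.30 to -0.09 on those labelled Bmi1. Choosing by this r thus favours genes lower in the arrays labelled Bmi1, so the calls of these 5 are no separate result. After the group means were taken out r was 0.97, 0.99, 0.97, 0.93 and 0.89. The log2 differences of the 5 genes were -0.84, -1.97, -1.42, -0.46 and -0.71. With the replicate block Maob, a monoamine oxidase, Ftcd, an enzyme of histidine breakdown, and Slc39a5, a zinc transporter, passed (adjusted p = 0.0386, 0.0156 and 0.0475). Hprt (0.0561) and Gstk1 (0.126) did not, and without a block none of the 5 did (0.151 to 0.407).

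Genes next to the cycle were read from lists fixed by pathway. For each list the counts stand against all 10916 tested genes, of which 54.3% had a lower mean. These are means of centred log2 values, and raw means of a gene with a small difference can go the other way. Without a block 0.165% of them passed, and 853 genes had an unadjusted p under 0.05. With the replicate block 3.33% passed, and 1.96% passed as lower. Of 20 enzymes of arginine and ornithine metabolism on the arrays 16 were tested, 10 with a lower and 6 with a higher mean, and the median log2 difference was -0.10. Without a block 0 passed in limma and 2 had an unadjusted p under 0.05. With it 1 fell, Agmat, from 102 ± 40.8 to 41.5 ± 11.0 (-1.24, limma adjusted p = 0.0131, and 0.205 without). Prodh, the first enzyme of proline breakdown, read 25.1 ± 5.39 and 49.4 ± 7.18 and was higher in 4 of 4 pairs (0.82, adjusted p = 0.0711 with the block). Oat, which turns surplus ornithine into glutamate semialdehyde, read 895 ± 80.0 and 931 ± 114 (-0.02, adjusted p = 0.932 with the block), and was chosen after its value was seen.

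All 11 tested carriers of cycle substrates and products, of 20 on the arrays, had a lower mean of centred log2 values, with a median of -0.24. Slc7a1 was among them at -0.02, although its raw signal averaged 615 on control arrays and 634 on Bmi1 arrays. Without a block 0 passed in limma and 3 had an unadjusted p under 0.05. Slc7a7, which exports arginine and lysine from epithelial cells, fell with the block from 85.5 ± 20.1 to 32.5 ± 5.74 (-1.36, adjusted p = 0.0145, and 0.0826 without). Slc7a2, an arginine importer of hepatocytes, read 656 ± 132 and 380 ± 155 (-0.94, 0.148 with the block). Slc25a13, the aspartate carrier citrin that feeds Ass1, read 433 ± 80.0 and 414 ± 150 (-0.19, 0.531 with the block). Citrin was chosen after its value was seen.

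Of 20 tested enzymes of ammonia, glutamate and aspartate 17 had a lower mean, with a median of -0.28, and 2 fell with the block. Without it 0 passed in limma and 4 had an unadjusted p under 0.05. Ftcd fell from 125 ± 37.9 to 34.6 ± 20.6 (-1.97, adjusted p = 0.0156 blocked and 0.151 unblocked). Asns, which makes asparagine with glutamine nitrogen, fell from 983 ± 284 to 737 ± 222 (-0.48, 0.0347 blocked and 0.748 unblocked).

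Of 20 tested regulators known for urea cycle genes 13 had a lower mean, with a median of -0.10. With the block 2 fell. Without it 0 passed in limma, and 0 had an unadjusted p under 0.05. Cebpd, of the C/EBP family, fell from 580 ± 188 to 435 ± 135 (-0.48, limma adjusted p = 0.0476). Nr1h4, the bile acid receptor, fell from 194 ± 94.4 to 91.5 ± 69.4 (-1.38, adjusted p = 0.031). Cebpa, a main activator of the cycle's genes, read 103 ± 46.6 and 99.9 ± 31.8 (-0.05, 0.915 with the block), and was chosen after its value was seen.

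Since the cycle is portal in the mature liver, zonal genes were set beside it. All 9 tested periportal genes had a lower mean, as 54.3% of all tested genes did, with a median of -1.58. Without a block 1 of the 9 fell, where 0.165% of all tested genes passed. With it 5 fell, where 1.96% of all tested genes passed as lower. The 5 were Pck1, Hsd17b13, Cyp2f2, Fbp1 and G6pc. Pck1, the entry enzyme of gluconeogenesis, read 127, 120, 111 and 136 in the control arrays and 23.2, 49.1, 27.7 and 52.4 in those labelled Bmi1, and it fell in both models (-1.74, adjusted p = 0.0434 unblocked and 0.0112 blocked). Fbp1, a later enzyme of the same path, read 287, 761, 283 and 367 against 61.2, 105, 19.4 and 49.4 (-2.93, 0.0594 unblocked and 0.00527 blocked). For both genes every array labelled Bmi1 lay below every control, as for 1.8% of all tested genes. The cytochrome Cyp2f2 (-2.50, 0.0106 with the block) and the glucose-6-phosphatase G6pc (-1.55, 0.0112) fell with the block. Hsd17b13, a lipid droplet enzyme, read 868, 1000, 825 and 704 in the control arrays and 153, 472, 256 and 401 in those labelled Bmi1 (-1.58, limma adjusted p = 0.0204 in the blocked model and 0.109 in the other). Bmi1 replicate 1 was the lowest array here, not replicate 3. Of 8 tested pericentral genes 7 had a lower mean, with a median of -0.37, and 1 fell with the block, the glutathione transferase Gstm3 (-1.91, 0.0157). Without it 0 of these passed in limma and 2 had an unadjusted p under 0.05. Glul, which makes glutamine from the ammonia that the cycle leaves, read 1862 ± 230 and 1486 ± 366 (-0.42, 0.063 with the block). Zonal position of cultured cells is not measured by these arrays, and the periportal and pericentral lists were not compared by a test.

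**Figure D4:**
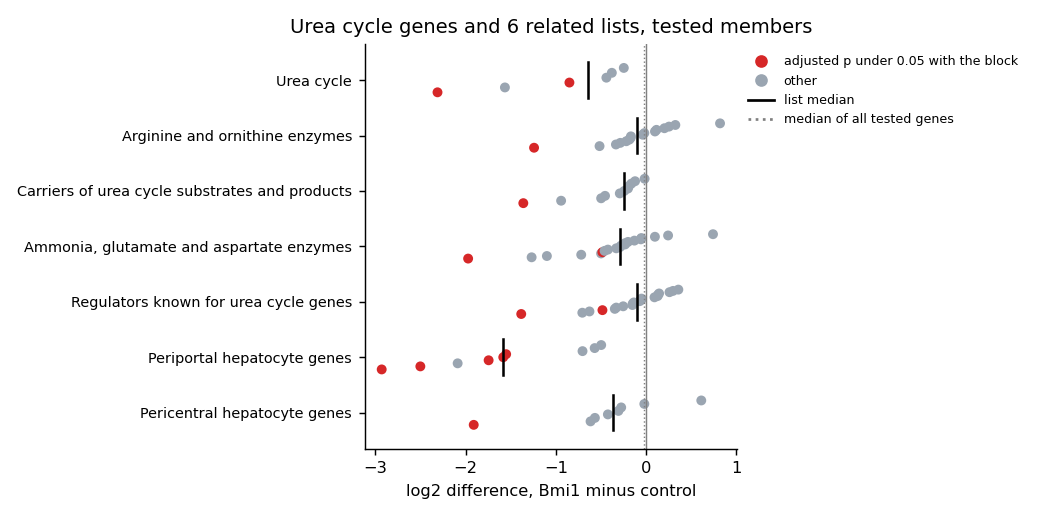
Log2 difference, Bmi1 minus control, for each tested gene of the urea cycle and of 6 related lists, with red points for an adjusted p under 0.05 with the replicate block, a bar for each list's median and a dotted line for the median of all tested genes. The urea cycle median is -0.64, that of periportal genes -1.58 and those of the other 5 lists between -0.37 and -0.10.

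Markers of cell types were read in the same way, and 0 of them passed in limma without a block. Of 8 tested fibroblast and stellate markers 7 had a lower mean, and the summed signal of 10 ran from 2337 to 11566 in the control arrays and from 1123 to 5894 in those labelled Bmi1, with Lrat at background on all 8. Of 6 tested biliary markers 5 had a higher mean, and the sum of 7 ran from 2157 to 3204 and from 3442 to 4177. The sum of 8 hepatocyte and hepatoblast markers, 7 lower of 8 tested, ran from 21409 to 32741 and from 20265 to 31622. Most of that sum was Alb, Afp, Ttr, Apoa1 and Fgb. Whether signals this bright lay near the top of the arrays' range was not tested. The 3 tested mesothelial markers of 5 were lower (sum 101 to 557 and 44.7 to 139), as were the 4 tested macrophage markers of 8 (559 to 2806 and 675 to 2478). Control replicate 1 held the highest Col3a1 (2300) and Gpm6a (273) of the 8 arrays. Col1a1, Col1a2, Acta2, Pdgfrb, Tagln, Msln, Wt1 and Upk3b were also highest there. Des, Lrat, Rgs5, Thy1 and Krt14, from the same lists, were highest on other arrays. Control replicate 1 also had the lowest mean standardized member value of the controls (0.16 against 0.54 to 0.74). It is the array with the Gapdh 3′ over 5′ ratio of 3.10. Endothelial markers summed to 119 to 238 and 244 to 352 over 8 genes, with Pecam1 and Tek at background on all arrays. Most of that sum was Egfl7, and the other 7 summed to 35.4 to 67.5 and 27.4 to 53.9. Erythroid markers summed to 51.7 to 108 and 83.6 to 122 over 7 genes, with Alas2 at background. Without Epor the other 6 summed to 30.1 to 89.3 and 32.9 to 46.1. Both of these genes were left out after their values were seen. With the block Epcam (biliary, 0.99, limma adjusted p = 0.022) and Egfl7 (endothelial, 0.95, 0.0205) rose. Acta2 (fibroblast and stellate, -1.11, 0.0397) and Msln (mesothelial, -1.26, 0.0483) fell with it. Without the block the adjusted p of these 4 genes ran from 0.171 to 0.778. The part of these cell types in the urea cycle differences was not tested.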

How the data were processed

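The deposited values are array signal intensities on a linear scale, 1 per probe set, made by software not given in the sources used here. With 2% of probe sets trimmed from either end every array averaged 100, which is a global scaling. Probe sets were named by the platform annotation, with current symbols looked up by gene identifier. Values were taken as log2(signal + 3.78), which understates folds of dim genes, the constant being the median of all deposited signals divided by 4. Each gene entered with its brightest single-gene probe set, genes from the 40th percentile of mean level up were kept, and arrays were centred on the median of the tested genes. The comparison used limma 3.58.1 (R 4.3.3) with an intensity trend, a two-sided test and Benjamini-Hochberg adjustment over all 10916 tested genes. Dim probe sets were fitted without the level filter.

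Arrays with the same replicate number deviated together from their group means (r = 0.53, 0.489, 0.501 and 0.682). All 4 exceeded 0.1, so the numbers were taken as pairs, and the blocked model is given where it changes a call. Arrays of the same run with other numbers also exceeded 0.1. The values were 0.476 for control 1 with Bmi1 2 and 0.12 for control 2 with Bmi1 1. They were 0.277 for control 3 with Bmi1 4 and 0.355 for control 4 with Bmi1 3. This cutoff thus cannot tell pairs from runs, and with the run as a block 0 of the members passed. The arrays are described as 4 independent experiments, and their number limits the precision.

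Every probe set of the members is named. From each related list come the members called in either model and the 2 with the smallest blocked p, then the 5 genes most like the members, and further genes are said to have been chosen later. The members, lists and settings were chosen with earlier results of these data known, and so no list is independent support.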

Additional observations from a re-analysis of the deposited data

How the results depend on the processing

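Cps1, Asl, Arg1 and Slc25a15 were lower in each of 35 other settings and Ass1 in each of 34. Nags was lower in 33 of 34 and reversed within run 1 (0.01). Without a block 0 members passed in any setting. With the replicate block, Slc25a15 passed in 12 of 12 settings, Arg1 in 8, Cps1 in 1 and Asl, Ass1 and Nags in 0.

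With the replicate block 2 members passed, Arg1 (-2.31) and Slc25a15 (-0.85), as with no centring (-2.24 and -0.78), quantile normalization (-2.23 and -0.78) and no level filter (-2.29 and -0.83), and with every bright probe set tested, also those of several genes. Centred on all probe sets 3 passed, Cps1 (-1.43), Arg1 (-2.18) and Slc25a15 (-0.72). With every probe set and no filter, chosen after seeing the data, only Slc25a15 passed. Without pairs 1, 2, 3 and 4 in turn 1, 2, 1 and 1 passed, Slc25a15 at -0.78, -0.87, -0.85 and -0.89 and Arg1 at -2.84 without pair 2.

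Over all genes 18 passed in limma, and 363 with the replicate block, 198 with the run block, and 0 within each run (824 and 1012 at an unadjusted p under 0.05). Without a block, 28 passed with no centring, 7 with quantile normalization, 30 at 4 times the pseudocount, 0 at the 60th percentile filter (442 unadjusted), 4 with every probe set, 3 without a filter on them, 4 with those of several genes and 37 with array weights. Leaving out 1 array gave 0 to 20, the 20 without control replicate 4 and at most 3 without any other array (unadjusted, 625 to 968). With the block these counts were 409 (no centring), 477 (centred on all probe sets), 333 (quantile), 414 (every probe set), 279 (no filter), 288 (every probe set, no filter), 425 (several genes) and 187, 140, 94 and 207 without pairs 1 to 4. The causes were not tested. Otc and the dimmer Slc25a15 probe set lie near background, which limits what can be detected there.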
